A study of Homo sapiens with 12 samples.

Results

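The genes described here encode the nuclear subunits of the respiratory chain and of ATP synthase, measured in HL-60 cells given decitabine or its vehicle. Members were taken by symbol: NDUFA, NDUFB, NDUFC, NDUFS and NDUFV genes for complex I, SDHA to SDHD for complex II, UQCR genes for complex III, COX4 to COX8 genes for complex IV and ATP5 genes for complex V. Symbols ending in P and a number, which mark pseudogenes, were left out. This gave 92 genes of the 60240 in the table, of which 42 belonged to complex I, 4 to complex II, 9 to complex III, 17 to complex IV and 20 to complex V. HL-60 is an established human promyelocytic leukaemia line, labelled wild type, and both treatments used the same line. Cells were plated at 100000 per mL in 6-well plates and received decitabine, a cytidine analogue that traps DNA methyltransferases, at 100 nM, or DMSO. Doses were given at 0, 24 and 48 h and RNA was taken at 6, 72 and 120 h, so the cells at 6 h had received the first dose alone. Libraries from total RNA depleted of ribosomal RNA were available for 2 wells per group, except DMSO at 72 h with 1. Nothing states that the wells were separate cultures, so p-values measure the spread between these libraries, which may be technical.

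The respiratory chain sits in the inner mitochondrial membrane. Complexes I and II pass electrons from NADH and succinate to ubiquinone, complex III passes them to cytochrome c and complex IV to oxygen, and the protons pumped by complexes I, III and IV drive ATP synthase, or complex V. A few subunits are encoded by mitochondrial DNA, while the others are encoded in the nucleus, and complexes I, III, IV and V assemble from both sets. Promoters of the nuclear genes are known for binding sites of NRF1, of ETS factors such as GABPA and of YY1.

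The symbol rule also took genes that are not subunits. ATP5IF1 encodes the inhibitor of ATP synthase and COX7A2L a factor of supercomplex assembly. NDUFA4 does encode a subunit, now counted in complex IV, and is placed here in complex I by its symbol. NDUFC2-KCTD14 and ATP5MF-PTCD1 are readthrough transcripts, NDUFA6-DT is a divergent transcript, and NDUFB2-AS1 and NDUFV2-AS1 are antisense RNAs. A value of at least 10 in at least 2 libraries was required for testing, and 84 members met it, with 40, 4, 8, 12 and 20 in complexes I to V. The 8 members under this level were COX4I2, COX6A2, COX7A1, COX7B2, COX8C, UQCRHL, NDUFB2-AS1 and NDUFV2-AS1. The filter can keep a gene through the group where it is high.

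Some known sequence words stood in a larger share of the members' promoters than of all promoters. RefSeq promoter windows of GRCh38.p14, from 250 bases before to 50 bases after a start site, were matched for 74 members. Searched on both strands, the NRF1 word GCGCATGC was in the windows of 15 members, or 20.3%, against 3.68% of all 27305 genes with a window. The YY1 word AAGATGGCG was in 10 members (13.5% against 2.14%), and the ETS word CCGGAAG in 21 (28.4% against 12.2%). The E-box CACGTG, the word bound by MYC and its partners, was in 9 members, or 12.2%, close to the 8.77% of all genes. The median number of CpG pairs, the substrate of DNA methyltransferases, was 22 per window of 300 bases in members and 14 in all genes. A match describes the letters of the window and is no measured binding site, and neither binding nor methylation was measured here.

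Sites from the promoters of genes that were lower with decitabine at 120 h are shown with 10 bases on either side, 5′ to 3′ on the strand of the gene, with the matched word in capitals.
NDUFS7, NRF1 word, chr19:1383824-1383851, plus strand: tccggtttccGCATGCGCtccgagccgc
NDUFS7, YY1 word, chr19:1383914-1383942, plus strand: ggccgaggccAAGATGGCGgtgctgtcag
NDUFS7, E-box, chr19:1383710-1383735, plus strand: ccgcggccccCACGTGcgcactccga
NDUFS6, NRF1 word, chr5:1801351-1801378, plus strand: cagaagccgtGCGCATGCgttagcgcta
NDUFA7, YY1 word, chr19:8321343-8321371, minus strand: tcgcggacggAAGATGGCGtccgccaccc
NDUFA7, E-box, chr19:8321480-8321505, minus strand: ggagaggagtCACGTGcttcggggag
UQCRH, ETS word, chr1:46303642-46303668, plus strand: gtgtgccgcaCTTCCGGccagatcgcc
UQCRQ, ETS word, chr5:132866578-132866604, plus strand: atggtatctcCCGGAAGttacctcacg
ATP5MC1, E-box, chr17:48892781-48892806, plus strand: aggtccaggaCACGTGggtgggggaa
ATP5PB, E-box, chr1:111449231-111449256, plus strand: cagcaaacccCACGTGgtgcacctct

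NDUFS7 had an NRF1 word, a YY1 word and an E-box in one window. Longer stretches upstream of the start site show how the words lie in promoters of complexes II, III and IV, of genes that did not pass the test at 120 h.
SDHB, NRF1 word, chr1:17054180-17054277, minus strand: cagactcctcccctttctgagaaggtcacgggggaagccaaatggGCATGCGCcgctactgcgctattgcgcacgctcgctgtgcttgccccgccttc
UQCR11, paired ETS words, chr19:1605528-1605624, minus strand: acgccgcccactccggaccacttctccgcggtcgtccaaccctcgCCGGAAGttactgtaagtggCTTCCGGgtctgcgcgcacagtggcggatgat
COX5B, NRF1 word, chr2:97645881-97645978, plus strand: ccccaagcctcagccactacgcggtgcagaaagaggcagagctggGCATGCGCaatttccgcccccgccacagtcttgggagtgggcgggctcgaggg

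Values are normalised counts, which are counts divided by a size factor for each library. Estimated depth ran from 14427335 to 32908453 counts per library. The promyelocyte marker MPO, which encodes myeloperoxidase, stood at 86061 to 178349, while HBB and ALAS2 of red cells were at 0 in all 11 libraries and CD3E, MS4A1, EPCAM and CDH5 did not exceed 5 in any. Decitabine 72 h replicate 2 stood apart, with a median absolute log2 difference from its replicate of 0.59 against 0.19 to 0.26 in the other pairs. The transcript FP671120.7 took 3.89 to 10.86% of counts in the 4 libraries of 120 h and 5.25% in decitabine 72 h replicate 1, against at most 0.79% in the other 6. The part of these differences in the results was not tested.

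In DMSO cells the members took 0.869 to 1.10% of all counts, and their levels per length of transcript differed widely. Divided by the transcript length in kilobases, UQCRH, the hinge protein of complex III, was highest, with a median of 18389 normalised counts per kilobase over the 5 DMSO libraries. COX6C of complex IV followed at 8406, then ATP5MPL, a small membrane subunit of complex V, at 6969 and NDUFS5, an accessory subunit of complex I, at 6730.0. The ranges of the last 3 over the DMSO libraries overlapped (5525 to 10616, 4344 to 9491 and 6331 to 8396), while UQCRH, at 15610.5 to 19330.1, lay above them. Among the 3 genes that encode the same c subunit of the ATP synthase rotor, ATP5MC2 had a median of 2519 per kilobase, ATP5MC3 634 and ATP5MC1 190.2, with no overlap between their ranges. Median levels per kilobase were 626 for complex I, 616 for complex II, 828 for complex III, 2297 for complex IV and 2165 for complex V. They depend on the length of 1 annotated transcript per gene, and include the readthrough and divergent transcripts. SDHC, with a length of 13566 nt, came to 9.71 per kilobase, against 424 for SDHA, 810 for SDHB and 809 for SDHD. Several members share sequence with other genes, so their counts are uncertain. At least 10% of the 50-base windows of 21 members lie in other genes too, and 2 of these members, UQCRH and NDUFA7, are among the genes called below: 29.4% of the 50-base windows of UQCRH are also in its copy UQCRHL, and 73.7% of those of NDUFA7 are also in the overlapping gene model AC010323.1.

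At 6 h, after a single dose, no member was called, as none of the 16152 genes tested was (0%). Calls were made in limma, with p adjusted over all genes tested and a threshold of 0.05. The fold changes, on the scale of log2(value + 1), had a median of -0.01 over members and -0.01 over all genes, with 42 members below 0 and 42 above. The smallest adjusted p of a member was 1, and 3 members had an unadjusted p under 0.05, namely NDUFS4, ATP5MF-PTCD1 and ATP5MPL. Of all 16152 genes tested, 541 had one. Both decitabine libraries lay below both DMSO libraries in 18 of 84 members, or 21.4%, against 20.8% of all genes, and above them in 10, or 11.9%, against 18.2%. The catalytic β subunit of ATP synthase, ATP5F1B, stood at 3824 and 4440.2 with decitabine and at 3399.8 and 3466 with DMSO. NDUFS1, the largest subunit of complex I, stood at 3523 and 3424 with decitabine and 3450.3 and 3488 with DMSO.

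**Figure D1:**
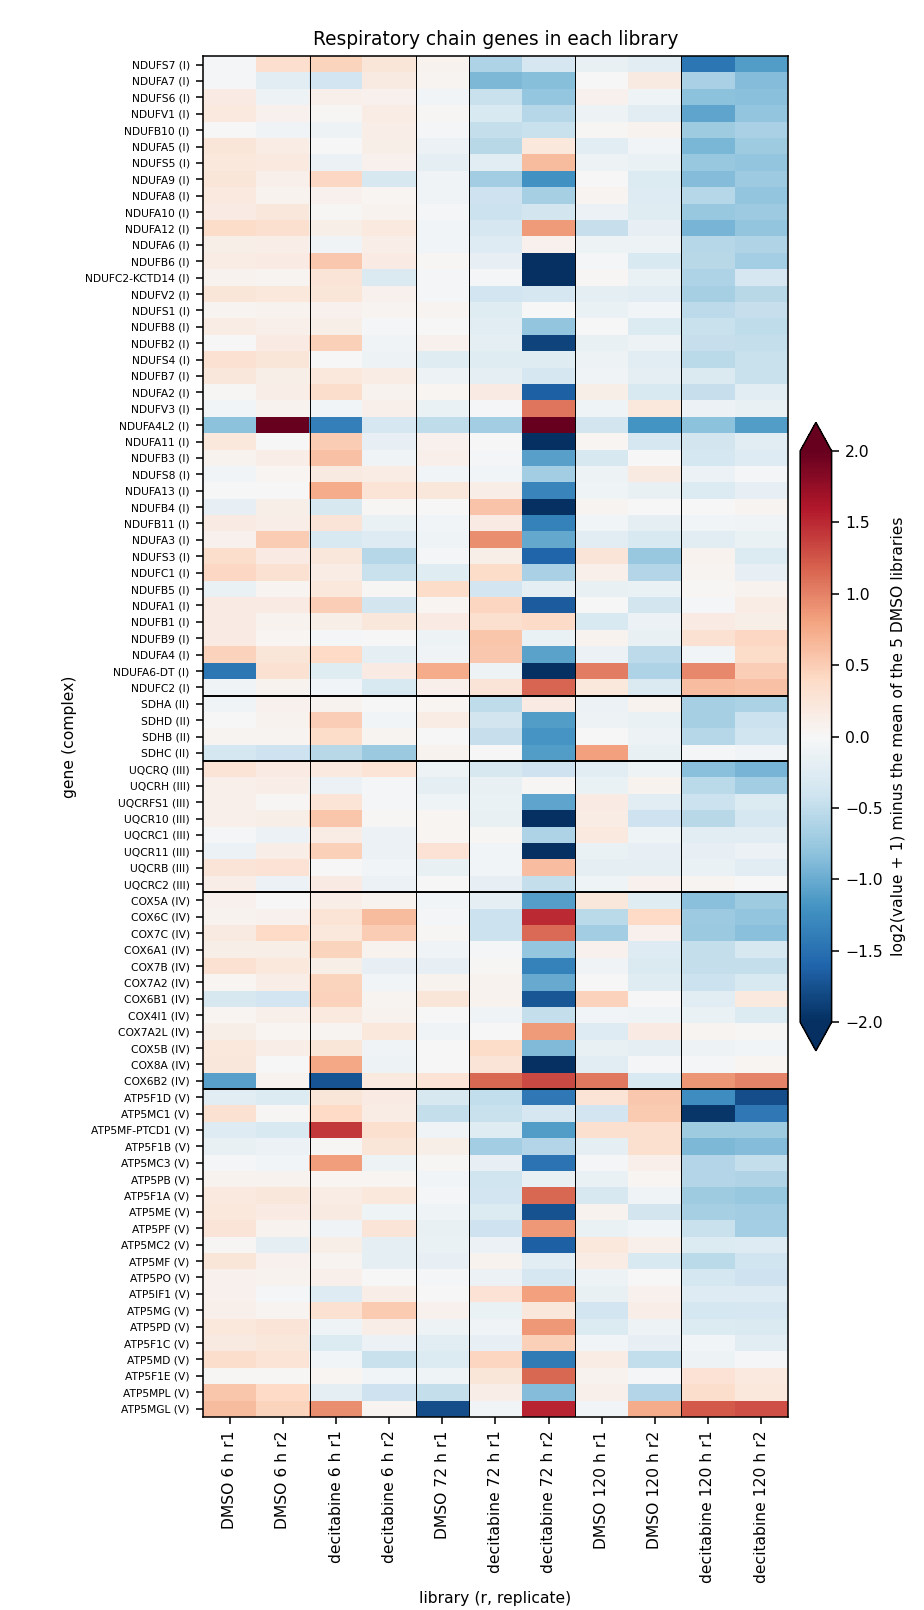
Values of 83 of the 84 tested members in the 11 libraries, as log2(value + 1) minus the mean of the 5 DMSO libraries, with genes in rows by complex and libraries in columns by time. The 6 h columns have library medians of 0.04 to 0.13, the decitabine 120 h columns of -0.44 and -0.34, and the column of decitabine 72 h replicate 2 holds both the lowest and the highest values of many genes.

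At 120 h, 12 of 84 members were called lower with decitabine and none was called higher, and all 12 were in complexes I, III and V. The share called lower was 14.3%, against 6.00% of all genes lower and 9.91% higher. The median log2 fold change was -0.31 over members and 0.07 over all genes, with 62 members below 0 and 22 above. With a value of at least 50 required in 2 libraries, which 80 members met, the median of all genes was -0.04. After quantile normalisation the median of all genes was -0.10. Complex I had 6 called of 40 with a median of -0.27, complex III 2 of 8 with -0.29 and complex V 4 of 20 with -0.41. Complexes II and IV had 0 called in limma, of 4 and of 12, with medians of -0.43 and -0.24. In each of these complexes 1 member had an unadjusted p under 0.05. Of all 84 members 24 had one, a share similar to the 4875 of 16152 genes tested. Both decitabine libraries lay below both DMSO libraries in 50 members, or 59.5%, where 30.6% of all genes did so, and above them in 10, or 11.9%, where 36.1% of all genes did so. In bulk RNA, fewer cells of a type and less RNA per cell cannot be told apart, and a lower normalised count is a lower share of the library.

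The calls rested on each of the 4 libraries of 120 h. Without any 1 of these libraries fewer members were called, and its group then held 1 library. The share of all genes called in those fits is not given here, so the drop does not describe the members alone. Without decitabine 72 h replicate 2, which enters the shared estimate of spread, 29 members were called lower and 2 higher of 83 tested at 120 h, against 15.0% of all genes lower and 16.0% higher. These 29 held all 12 named above, with 14 in complex I, 2 in complex II, 2 in complex III, 1 in complex IV and 10 in complex V. The 2 higher were NDUFB1 and NDUFB9, accessory subunits of complex I. Without decitabine 72 h replicate 1 the counts were also 29 lower and 2 higher, against 15.0% and 15.9% of all genes.

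**Figure D2:**
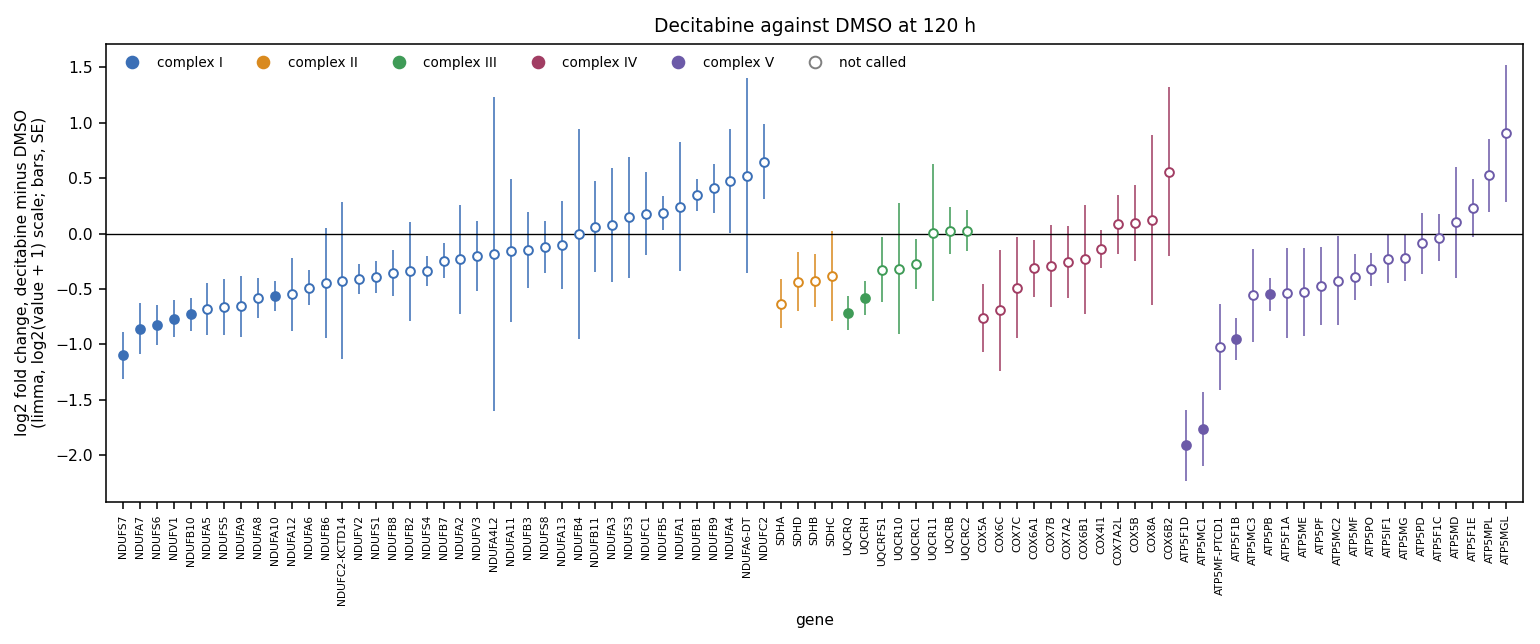
Log2 fold change of decitabine against DMSO at 120 h for 83 of the 84 tested members, grouped by complex and ordered within it, with bars of 1 SE from limma and filled points for the called genes. Filled points are in complexes I, III and V, and the lowest are ATP5F1D at -1.91 and ATP5MC1 at -1.76.

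ATP synthase held the largest changes. ATP5F1D, the δ subunit of the central stalk (chr19:1241746-1244826, plus strand), stood at 94.9 and 65.3 with decitabine and 272 and 328 with DMSO at 120 h. The decitabine libraries were below all 5 DMSO libraries, of which those at 6 and 72 h lay lower, at 179 to 194, than those at 120 h. The log2 fold change was -1.91 (SE 0.32, adjusted p = 0.00583 in limma), or 3.75-fold between the means of 80.1 ± 20.9 and 300.1 ± 39.5 (SD, n = 2).

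ATP5MC1, 1 of the 3 genes for the c subunit (chr17:48892765-48895871, plus strand), stood at 28.2 and 40.8 with decitabine and 85.2 and 161 with DMSO. These groups did not overlap, but the DMSO libraries were also far apart, and DMSO at 72 h, at 79.8, lay close to decitabine at 72 h, at 81.6 and 88.5. The log2 fold change was -1.76 (SE 0.33, adjusted p = 0.0102 in limma). The other 2 genes for this subunit, ATP5MC2 and ATP5MC3, stood at 1812 ± 13.7 and 377 ± 20.0 with decitabine and at 2433 ± 133 and 556 ± 35.5 with DMSO (SD, n = 2). Their groups did not overlap either, and neither passed the test (adjusted p = 0.533 and 0.428 in limma).

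ATP5F1B, the catalytic β subunit (chr12:56638175-56646068, minus strand), stood at 2019 and 2049 with decitabine and 3313 and 4667 with DMSO, with a log2 fold change of -0.95 (SE 0.19, adjusted p = 0.0117 in limma). ATP5PB, a subunit of the peripheral stalk (chr1:111448864-111462773, plus strand), stood at 3284 and 3231 against 4476 and 5065, with a log2 fold change of -0.55 (SE 0.15, adjusted p = 0.0416 in limma). Decitabine and DMSO libraries were thus separate for both genes. The other subunits of the catalytic head and central stalk were not called. ATP5F1A, the α subunit, stood at 6171 ± 112 against 8975 ± 1091, with groups that did not overlap, and ATP5F1C, the γ subunit, at 2804 ± 233 against 2871 ± 156, with groups that did (SD, n = 2). ATP5F1E, the ε subunit, lay higher with decitabine in both libraries, at 6725 and 6347 against 5795 and 5365, and did not pass the test (adjusted p = 0.614 in limma). Elsewhere in complex V, ATP5MPL and ATP5MGL also lay higher in both libraries without being called, with log2 fold changes of 0.53 and 0.91. ATP5MGL was low, with a median of 10.3 per kilobase over the DMSO libraries.

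Of the 6 genes called in complex I, NDUFS7 and NDUFV1 encode core subunits and the others accessory subunits. NDUFS7 (chr19:1383527-1395589, plus strand), which holds the last iron-sulfur cluster before ubiquinone, stood at 120.2 and 150.0 with decitabine and at 297 and 280.2 with DMSO. NDUFV1 (chr11:67605653-67612554, plus strand), which binds NADH, stood at 904 and 1095 against 1762 and 1629. Both groups of libraries were separate in each gene, and the log2 fold changes were -1.10 (SE 0.21, adjusted p = 0.011 in limma) and -0.77 (SE 0.17, adjusted p = 0.0177).

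NDUFS6, an accessory subunit that binds zinc (chr5:1801400-1816605, plus strand), stood at 339 and 335 with decitabine and 632 and 563 with DMSO (log2 fold change -0.82). NDUFB10, an accessory subunit of the membrane arm (chr16:1959508-1961975, plus strand), stood at 689 and 715 against 1149 and 1179 (-0.73). NDUFA10 (chr2:239892450-240025402, minus strand), also accessory, stood at 1458 and 1483 against 2258 and 2084 (-0.56). NDUFA7 (chr19:8308768-8321396, minus strand), whose counts are uncertain as given above, stood at 138 and 119 against 220.3 and 247 (-0.86). All 4 had decitabine libraries below every one of the 5 DMSO libraries, with adjusted p of 0.0178, 0.013, 0.0248 and 0.0389 in limma.

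Other core subunits of complex I differed less or not in one direction. NDUFS1 and NDUFV2, both carriers of iron-sulfur clusters, stood at 2349 ± 73.0 and 1900.3 ± 95.9 with decitabine and 3091 ± 113 and 2522 ± 30.8 with DMSO (SD, n = 2). Neither was called with all libraries (adjusted p = 0.104 and 0.0826 in limma), and both were called without decitabine 72 h replicate 2. NDUFS8, which also carries iron-sulfur clusters, had 241 and 255 against 244 and 298, which overlapped. NDUFS3 varied most between replicates, with 1446 and 1145 against 1654 and 818. NDUFB1 and NDUFB9 lay on the other side, at 933 ± 23.1 and 2968 ± 150.0 with decitabine and 733 ± 66.5 and 2239 ± 239 with DMSO (SD, n = 2), without passing the test.

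**Figure D3:**
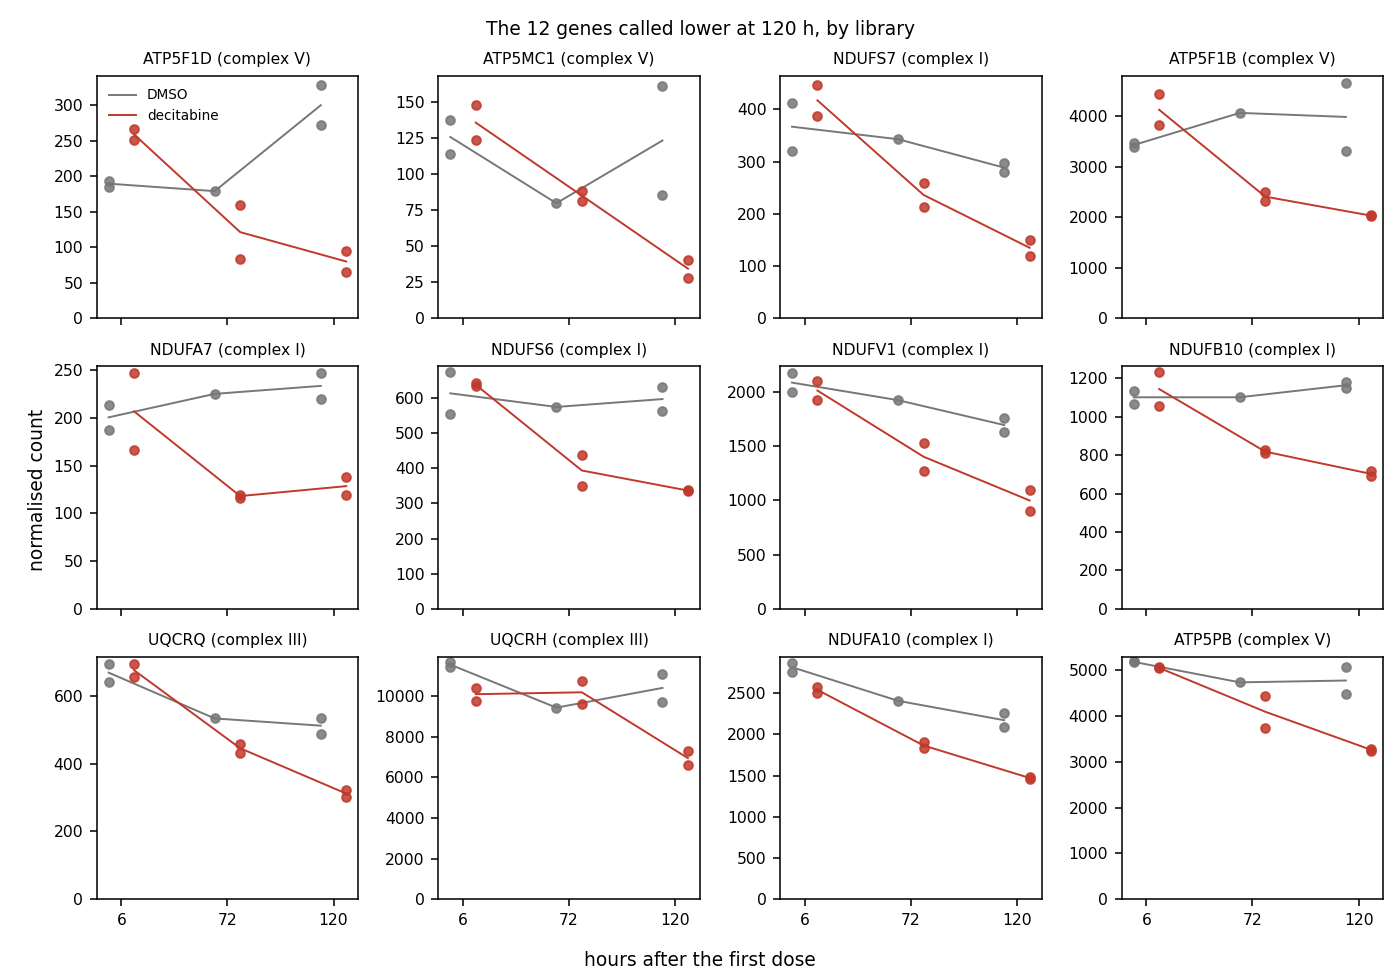
Normalised counts of the 12 genes called lower at 120 h, for each library (points) at 6, 72 and 120 h, with lines through the group means, DMSO in grey and decitabine in red. At 120 h both red points lie below both grey points in every panel, while at 6 h red points lie at or above grey points in several, such as ATP5F1D at 267 and 251 against 194 and 186.

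Complex II, the succinate dehydrogenase of the citric acid cycle, had all 4 subunits below 0 at 120 h with none called. SDHA, the flavoprotein, stood at 621 and 634 with decitabine and 915 and 1036 with DMSO (adjusted p = 0.0935 in limma). SDHB, the iron-sulfur subunit, stood at 626 and 706 against 926 and 863 (adjusted p = 0.282), and SDHD, a membrane anchor, at 728 and 853 against 1082 and 1050.1 (adjusted p = 0.326). These 3 did not overlap between groups, whereas the other anchor, SDHC, did, at 144 and 139.8 against 259 and 132. SDHA and SDHB were the 2 members of complex II called without decitabine 72 h replicate 2.

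In complex III both called genes were small accessory subunits. UQCRQ (chr5:132866560-132868031, plus strand) stood at 321 and 302 with decitabine and 488 and 536 with DMSO, with a log2 fold change of -0.71 (SE 0.15, adjusted p = 0.0159 in limma). UQCRH (chr1:46303631-46316776, plus strand) stood at 7292 and 6594 against 9694 and 11107, with -0.58 (SE 0.15, adjusted p = 0.0374). The larger subunits were not called: the core proteins UQCRC1 and UQCRC2 stood at 2297 ± 14.7 and 1985 ± 41.1 against 2786 ± 380.4 and 1949.6 ± 161, and the Rieske iron-sulfur protein UQCRFS1 at 501 ± 40.1 against 633 ± 117 (SD, n = 2). UQCRC1 and UQCRFS1 did not overlap between groups and UQCRC2 did.

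Complex IV had no called member. COX5A, a matrix subunit, came nearest, at 123 and 135 with decitabine and 259 and 186 with DMSO (log2 fold change -0.76, SE 0.30, adjusted p = 0.132 in limma). It was the 1 member of complex IV called without decitabine 72 h replicate 2. COX4I1, the ubiquitous form of subunit 4, stood at 1547 ± 103 against 1697 ± 25.5, COX6A1 at 1182 ± 88.5 against 1478 ± 246, and COX7A2 at 1299 ± 78.1 against 1553 ± 189 (SD, n = 2). COX5B lay the other way in both libraries, at 1577 and 1630.2 against 1521 and 1479.7. COX6C and COX7C had DMSO pairs that lay far apart, with 3155 and 6062, and 2225 and 3812.

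Tissue-restricted copies of complex IV subunits were near or at 0. COX4I2, the lung form, and COX7A1, a muscle form, were listed at 0 in all 11 libraries. COX6A2, the heart and muscle form, was above 0 in 1 library, at 1.42 in decitabine 120 h replicate 2, and COX8C in the 2 decitabine 120 h libraries, at 1.49 and 1.42. COX7B2, known from testis, was listed at 0 in all 5 DMSO libraries and both decitabine libraries of 6 h. It stood at 3.57 and 2.86 with decitabine at 72 h and 7.71 and 8.09 at 120 h, so the 4 later decitabine libraries were the ones above 0. It lay under the level required for testing, as did COX8C. COX6B2, also known from testis, stood at 10.3 and 11.2 against 11.8 and 3.95 at 120 h, which overlapped.

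The other members outside the subunits proper were not called either, nor was NDUFA4. ATP5IF1 stood at 485 and 488 with decitabine and 525 and 617 with DMSO at 120 h, COX7A2L at 2389 and 2344 against 1928 and 2579.8, and NDUFA4 at 403 and 541 against 385 and 293. NDUFA4L2, a paralogue known as induced by hypoxia, was at most 2.55 in 9 libraries and at 32.4 in DMSO 6 h replicate 2 and 35.7 in decitabine 72 h replicate 2. Counts of NDUFC2 and its readthrough could not be separated: NDUFC2 was listed at 40.8 to 114 and NDUFC2-KCTD14 at 78.9 to 678. ATP5MF-PTCD1 stood at 65.8 and 66.0 with decitabine and at 135 in both DMSO libraries, and 98.1% of its 50-base windows lie in other genes as well. UQCRHL, the intronless copy of UQCRH, was at 3.22 to 10.4 throughout, and NDUFB2-AS1, NDUFV2-AS1 and NDUFA6-DT did not exceed 16.

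At 72 h no member was called, while 0.310% of all genes were lower and 1.88% higher. The median log2 fold change was -0.32 over members and 0.09 over all genes, with 59 members below 0 and 25 above. The median of all genes was 0.04 with at least 50 required in 2 libraries, and -0.04 after quantile normalisation. The smallest adjusted p was 0.13, for NDUFB5. An unadjusted p under 0.05 was found in 10 of 84 members and in 2919 of 16152 genes tested. DMSO had 1 library at this time, and its spread was assumed to be that of the other groups. The 2 decitabine libraries disagreed: against the DMSO library, the median over members was -0.57 for replicate 2 alone and -0.09 for replicate 1 alone. With replicate 2 as the sole decitabine library, limma called 36 members lower and 14 higher. Of all 15988 genes tested in that fit, 2072 were lower and 2684 higher, or 29.7% in either direction. With replicate 1 as the sole one it called 1 lower, NDUFB5, and 0 higher, against 1.68% and 2.87% of all genes. If the heading of the table lacked values for a decitabine 72 h name instead, replicate 2 would be a DMSO library, so the values of 72 h rest on the reading of that heading. In that library CEBPE stood at 2685 and PECAM1 at 1786. DMSO libraries ran from 1299 to 1505 and from 448 to 658. The other decitabine libraries of 72 and 120 h ran from 2487 to 2608 and from 1087 to 1875. CTSG, at 1346, lay within the DMSO range of 1043 to 1435. MPO, ELANE, PRTN3, AZU1 and CD33 were lowest in that library. The heading was not tested with these genes.

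The disagreement ran in both directions among members. COX8A stood at 206 in replicate 1 and 26.3 in replicate 2, NDUFB4 at 892 and 61.8, NDUFA11 at 284 and 51.0, and UQCR11 at 494 and 93.9. On the other side, ATP5F1A stood at 7832 and 22729, COX6C at 3400.3 and 12919.6, and ATP5F1E at 6544 and 12293. Members with short transcripts were more often low in replicate 2. Of 50 members under 1000 nt, 35, or 70%, lay below replicate 1, against 15 of 34, or 44.1%, of those at or over 1000 nt. Over all genes tested these shares were 57.2% and 47.1%. The genes called at 120 h included some that were close in both replicates, such as NDUFA7 at 117 and 119.8 against 225 with DMSO, and NDUFB10 at 809.6 and 827 against 1101.

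**Figure D4:**
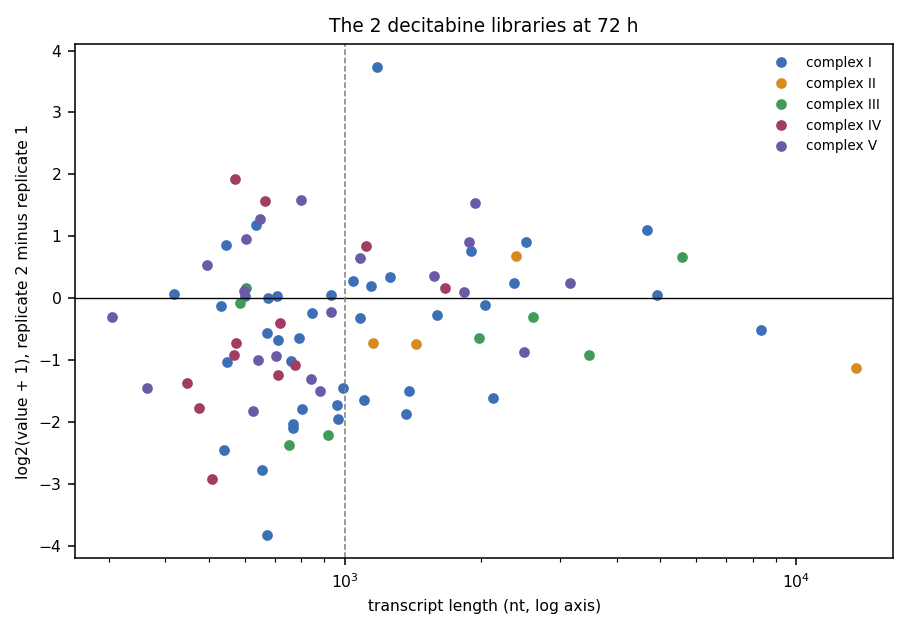
Difference between the 2 decitabine libraries at 72 h, replicate 2 minus replicate 1 of log2(value + 1), against transcript length in nt on a log axis, for the 84 tested members coloured by complex, with a dashed line at 1000 nt. Points to the left of the line lie below 0 in 35 of 50 members and points to its right in 15 of 34.

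The effect of decitabine differed between 120 h and 6 h in 3 members by the test of that difference in limma, against 1.63% of all genes with a lower effect at 120 h and 4.27% with a higher one. They were NDUFS7 (log2 difference of effects -1.29, SE 0.30, adjusted p = 0.0437), ATP5F1B (-1.21, SE 0.26, adjusted p = 0.0356) and ATP5F1D (-2.36, SE 0.45, adjusted p = 0.0232). In each of these genes the 2 decitabine libraries had a higher mean than DMSO at 6 h, by 0.19, 0.26 and 0.45 on the log2 scale, and a lower one at 120 h. The count was 0 without either decitabine or the second DMSO library of 120 h, and without either DMSO library or the first decitabine library of 6 h. It was 1 without decitabine 6 h replicate 2 and 16, with 14 lower and 2 higher, without either decitabine library of 72 h. Of all genes, 1396 were then lower and 1600 higher without replicate 1, or 18.7%, and 1406 and 1599 without replicate 2, or 18.9%. For the fits without a library of 6 or 120 h, the share of all genes called is not given here. Between 120 h and 72 h no member differed, as no gene did (0%). An unadjusted p under 0.05 was found in 5 of 84 members and in 1022 of 16152 genes tested. Complex V had a median difference of effects of -0.41 between these times and complex I of 0.08.

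Culture time in DMSO alone moved no member past the test between 6 and 120 h, as it did no gene (0%). The members' median log2 change was nevertheless -0.20, with 69 below 0 and 15 above, while the median of all genes was -0.01. NDUFV2, NDUFS4, NDUFA10 and UQCRQ were the 4 members with an unadjusted p under 0.05, with log2 changes of -0.43, -0.43, -0.38 and -0.38. Of all 16152 genes tested, 865 had one. All 12 genes called at 120 h lay with decitabine below all 5 DMSO libraries, as did 49 of the 84 members and 23.3% of all genes. For NDUFV1 the DMSO libraries ran from 1629 to 2173 and for UQCRQ from 488 to 695, with the 120 h libraries lowest or among the lowest.

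Genes that build, feed or regulate the complexes were counted beside the members at 120 h, in lists taken from general knowledge. Of all genes tested, 6.00% were called lower and 9.91% higher at that time. Assembly factors of complex I had 4 called lower of 17 (median -0.62), those of complex III 3 of 6 (-0.90) and those of complex IV 4 of 24 (-0.37), with 0 called higher. NDUFAF2, a chaperone of late complex I assembly, stood at 138 ± 3.75 against 347 ± 10.5 (SD, n = 2). BCS1L, which inserts the Rieske protein into complex III, stood at 159 ± 4.14 against 343 ± 7.86, and LRPPRC, which stabilises mitochondrial mRNAs, at 6129 ± 561 against 12136 ± 756. Assembly factors of complex II and of ATP synthase had 0 called in limma of 4 and of 5, with medians of -0.05 and -0.13.

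Electron carriers and subunits under other symbols had 0 called of 6 and a median of -0.36. CYCS, which encodes cytochrome c, stood at 6928 ± 157 with decitabine and 11148 ± 490.1 with DMSO (SD, n = 2; adjusted p = 0.0518 in limma). The 13 mRNAs of mitochondrial DNA had 0 called and a median of -0.38, and in DMSO their median between 6 and 120 h was 1.28, with all 13 above 0 and none past the test. Pyruvate dehydrogenase and the citric acid cycle had 5 of 18 lower and none higher, with a median of -0.56, among them DLAT, IDH3A and FH. Mitochondrial ribosomal proteins had 26 of 78 lower (33.3%) and none higher, with a median of -0.64. Cytosolic ones had 3 of 83 lower (3.61%) and a median of -0.29, where 6.00% of all genes were called lower.

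Glycolysis moved in both directions. HK3, HK1 and the glucose transporter SLC2A3 rose, by 3.36, 2.55 and 2.89 on the log2 scale, and PFKP and LDHB fell, by 1.43 and 1.12, of 20 genes with a median of -0.16. Over all genes, 9.91% were called higher and 6.00% lower. Among 17 regulators tested, 4 fell: MYC, by 2.08, POLRMT, the mitochondrial RNA polymerase, by 1.43, TFB2M by 1.04 and TFAM, which packages mitochondrial DNA, by 0.72. NRF1 and GABPA, which encode factors of the promoter words above, stood at 204 ± 0.735 and 1348 ± 2.70 with decitabine and 150.5 ± 15.7 and 1597 ± 37.5 with DMSO (SD, n = 2), and neither was called (adjusted p = 0.261 and 0.559 in limma). Members with and without a word had medians at 120 h of -0.43 and -0.25 for the NRF1 word, -0.23 and -0.33 for the ETS word, -0.45 and -0.25 for the YY1 word and -0.55 and -0.28 for the E-box. Of 7 tested members with an E-box 4 were called lower (NDUFS7, NDUFA7, ATP5MC1 and ATP5PB), and of 62 without one 6 were. With the NRF1 word 2 of 15 were called lower, and without it 8 of 54. The counts were 2 of 21 and 8 of 48 for the ETS word, and 2 of 10 and 8 of 59 for the YY1 word. The share of all genes with each word that was called lower is not given here. These medians and counts are descriptions of the members, without a test.

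**Figure D5:**
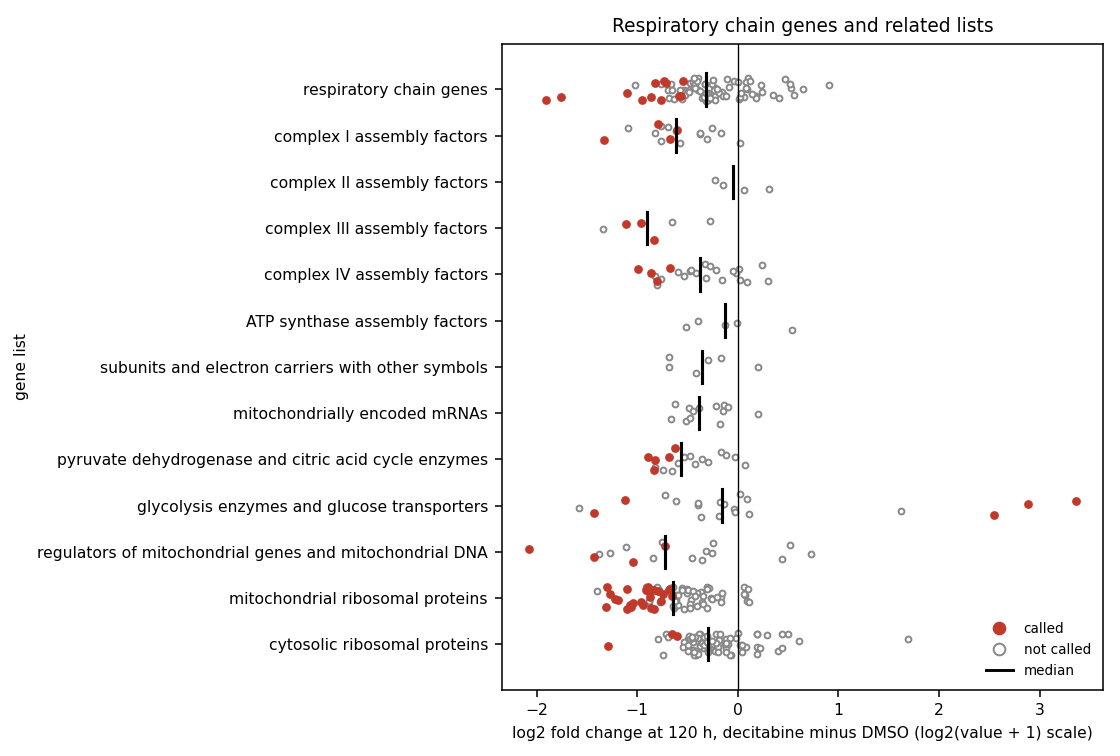
Log2 fold change at 120 h for each tested gene of the respiratory chain and of 12 related lists, with called genes in red and the median of each list as a bar. The medians of the respiratory chain (-0.31), complex I assembly (-0.62), the citric acid cycle (-0.56) and mitochondrial ribosomal proteins (-0.64) lie below 0, and the red points at the right are HK3, SLC2A3 and HK1.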

How the data were processed

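The authors deposited 1 table of normalised signal, that is, counts scaled per library. The submitters' processing notes name hg38, Salmon 1.2.1, STAR, featureCounts, DESeq2 and limma, and no role for any of them. The annotation release was not given in the sources used here. Per the file headers, 12 library names stand over 11 columns of values. The names were taken to begin over the symbol, so DMSO 72 h replicate 2 was not analysed here, and all values depend on that choice. With it, the median absolute log2 difference averaged 0.2985 within and 0.4387 between groups, and with names beginning over the identifier 0.4292 and 0.4256. With a decitabine 72 h name lacking values instead they were 0.3150 and 0.4370, and the library that stands apart, decitabine 72 h replicate 2, would be a DMSO library. Of the low values of a library, 57.6 to 60.8% were whole multiples of a step (tolerance 0.01), which served to estimate depth. Counts could not be recovered from the other low values, and values of 30 or more were not examined for this. No count model was used, because the values were expected to be counts scaled by size factors.

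Genes reaching 10 in 2 or more libraries were put on the scale of log2(value + 1), on which the change of low genes is understated. In limma 3.58.1 (lmFit, eBayes with trend, R 4.3.3), the 11 libraries gave a mean per group for 6 groups, with 5 residual degrees of freedom, and two-sided p-values were adjusted by Benjamini-Hochberg over 16152 genes. The script was tested on simulated data, with independent normal noise and 1 spread per gene for all libraries. No simulated library stood apart as decitabine 72 h replicate 2 does, so that test does not cover its part in the calls. Positions and transcript lengths came from GENCODE 29 (GRCh38), which held all 92 identifiers, and promoters from RefSeq. Named genes were the called members, core subunits, tissue-restricted copies, NDUFA4 and members outside the subunits, and others were named after their values were seen. The values of 1 core subunit are not reported here, although it is counted. The members and lists were chosen with earlier results of these data known. Alternatives were the pseudocount, the filter, other scalings, no trend, robust estimation, sample weights, a replicate block, fewer or pooled control libraries, and leaving out each library. Plots were drawn with matplotlib 3.10.9.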

Additional observations from a re-analysis of the deposited data

Results flagged for a closer look

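The effect of decitabine differed between 120 h and 6 h by its own test in limma for NDUFS7 (-1.29 on the log2 scale, adjusted p = 0.0437), ATP5F1B (-1.21, adjusted p = 0.0356) and ATP5F1D (-2.36, adjusted p = 0.0232). In NDUFS7, which carries an iron-sulfur cluster of complex I, decitabine libraries stood at 447 and 387 against 321 and 412 with DMSO at 6 h, which overlapped. In ATP5F1D and ATP5F1B, subunits of ATP synthase, both decitabine libraries lay above both DMSO libraries at 6 h and below them at 120 h. The sign was kept in all 23 alternatives for each gene, and significance was lost in 11, 9 and 9 of them, with adjusted p up to 0.173, 0.141 and 0.104.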

How the results depend on the processing

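Members called at 120 h numbered 12, all lower. They numbered 27 with sample weights (25 lower, 2 higher) and 28 with the 120 h libraries alone (27 lower, 1 higher). With no filter on low values they numbered 11, with 9 lower and 2 higher (COX7B2 and COX8C). For settings other than leaving out a library, the share of all genes called is not given here. A changed count therefore does not describe the members alone. The count of effects that differed between 120 h and 6 h was 3, and 6 with quantile normalisation and 1 without trend, all lower. It was 12 with sample weights (11 lower, 1 higher) and 17 with the libraries of those times alone (15 lower, 2 higher). With no filter on low values it was 2, both higher (COX7B2 and COX8C, at or near 0 in most libraries), and none of the 3 was called. Members called at 72 h numbered 0, and 1 (COX7B2, higher) with no filter on low values. With all DMSO libraries as the control they numbered 11 (9 lower, 2 higher). Leaving out each library in turn gave 1 to 31 at 120 h, 0 to 50 at 72 h, 0 to 16 for the difference from 6 h and 0 to 35 for that from 72 h, and 0 at 6 h and for DMSO over time. Without DMSO 72 h replicate 1 the comparisons at 72 h could not be fitted. The cause of these changes was not tested beyond the samples and genes that each fit holds. Quantile normalisation moved the median of all genes at 120 h by -0.17, while the members' median stayed between -0.40 and -0.26 in every setting run. Deviations of same-numbered libraries correlated weakly, at -0.08 to 0.12 over 10 pairs of groups. The 2 over 0.1 both involved decitabine at 72 h. Correlations over all genes tested cannot exclude a pairing that affects part of the genes. With a replicate block 10 members were called at 120 h. No gene called in the main analysis changed sign, while some that were not called did, such as ATP5F1C and UQCRC2 at 120 h. With 2 libraries per group, low members such as COX7B2 at 7.71 and 8.09 rest on few counts.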
